A study of Homo sapiens with 12 samples.

Results

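The 10 genes described here encode the YTH-domain readers of N6-methyladenosine (YTHDF1, YTHDF2, YTHDF3, YTHDC1 and YTHDC2), the IGF2BP readers (IGF2BP1, IGF2BP2 and IGF2BP3) and the demethylases FTO and ALKBH5. They were chosen by name, with no threshold on a measured value but with earlier results of these data known, and were 10 of the 65969 gene identifiers in the deposited table. Each symbol matched 1 identifier, and all 10 passed the filter on low counts.

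RNA came from embryoid bodies, the aggregates in which human embryonic stem cells differentiate, made from the established lines H1 and MEL1. Both lines carried a lentiviral short hairpin RNA switched on by doxycycline, either against METTL14 (hairpins KD1, KD2 and KD3) or the scrambled control SCR. The cells had been selected with puromycin as stable populations, 500 cells went into each microwell, and all groups, SCR included, received doxycycline at 2 µg/ml for 10 days. H1 had 2 libraries each of SCR, KD1, KD2 and KD3, and MEL1 had 1 SCR, 2 KD1 and 1 KD2 library. Nothing in the labels says that libraries of a group came from separate cultures, so p-values measure only the spread between these libraries, which may be technical.

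N6-methyladenosine (m6A) is a methyl mark placed on adenosines of messenger RNA by a complex of METTL3, METTL14 and WTAP. Cytoplasmic YTHDF proteins bind marked transcripts and bring in deadenylases, YTHDC1 reads the mark in the nucleus during splicing and export, and YTHDC2 is a helicase best known from meiosis. IGF2BP proteins are oncofetal RNA-binding proteins that are reported to stabilise their targets, and FTO and ALKBH5 are iron-dependent dioxygenases that take methyl groups off RNA.

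Library totals ran from 36609628 to 43508287 estimated counts, except for MEL1 SCR at 15963241. The members had between 527 estimated counts (YTHDC2 in MEL1 SCR) and 25364 (IGF2BP1). METTL14, the targeted gene, had a level of 29.8 and 43.8 CPM with SCR in H1. CPM are estimated counts brought to the same library size and corrected for composition. In the 6 H1 knockdown libraries METTL14 ranged over 8.89 to 17.7 CPM. It stood at 11.1 and 11.0 with KD1, 17.7 and 14.8 with KD2, and 8.89 and 13.5 with KD3. In MEL1 it stood at 49.9 CPM with SCR and at 5.94 to 8.95 with the hairpins, so all 9 knockdown libraries were below the SCR libraries of their line. The label names the cells as embryonic stem cells, and markers of pluripotent cells were present with those of neural progenitors. POU5F1 ranged over 240 to 879 CPM in MEL1 and 21.3 to 62.2 in H1, while PAX6, which marks neural progenitors, ranged over 0.20 to 2.92 in MEL1 and 95.8 to 224 in H1. In such bulk samples, fewer cells of a type and less RNA per cell cannot be told apart.

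**Figure D1:**
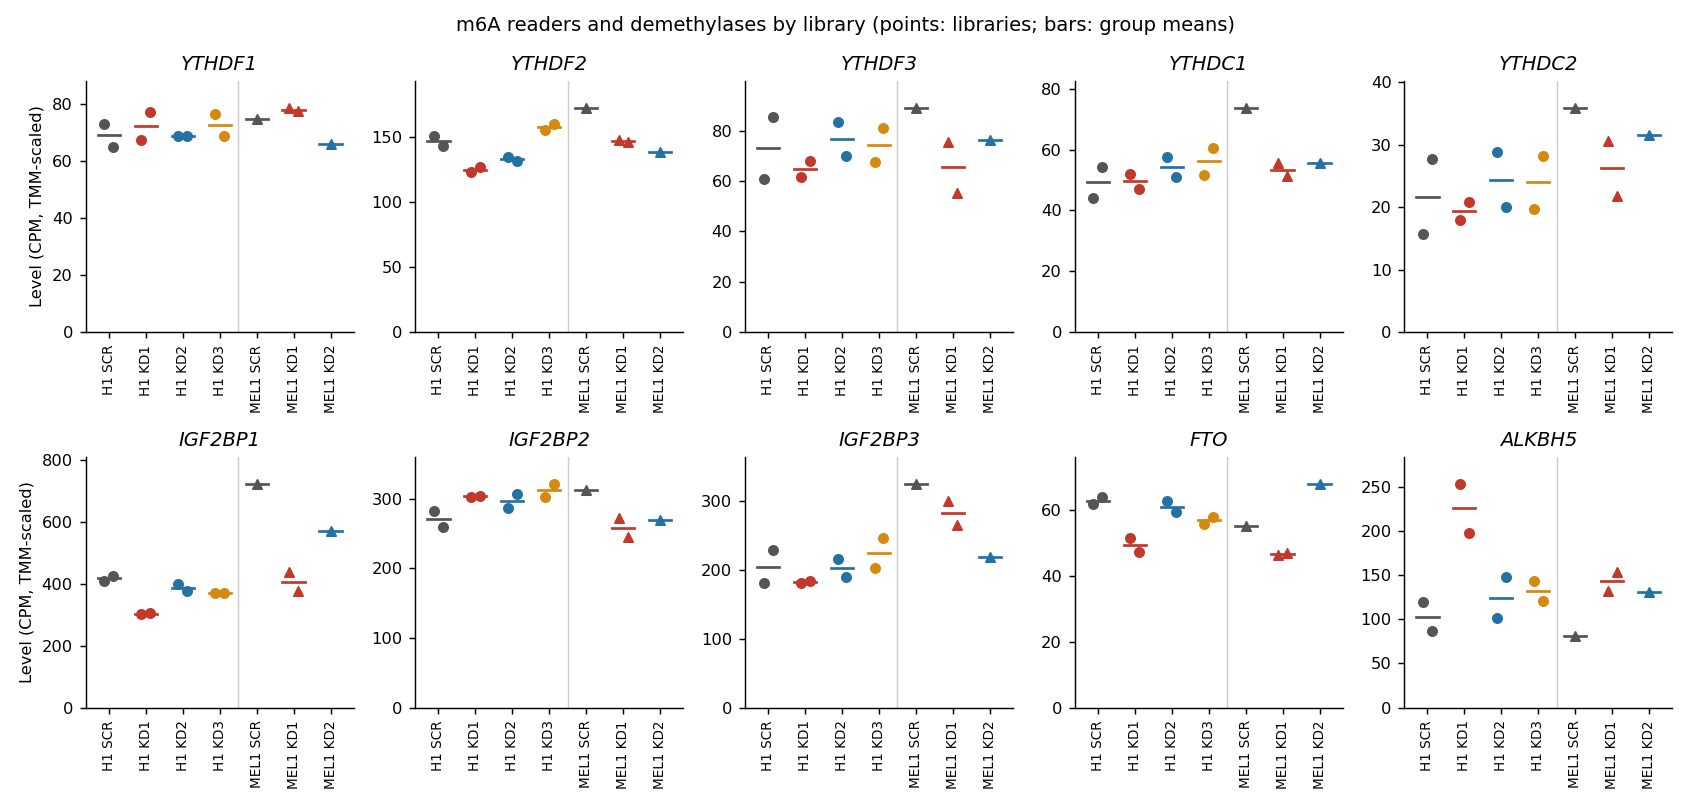
Level of each member in CPM (vertical axis from 0) in the 12 libraries; circles are H1 and triangles MEL1 libraries, colours mark the hairpin, and horizontal bars are group means. IGF2BP1 lies below the SCR libraries of its line in 9 of 9 knockdown libraries, and ALKBH5 is highest in the H1 KD1 libraries, at 254 and 197 CPM.

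Levels of different genes were compared per kb of the gene's median protein-coding transcript in GENCODE release 29, as means over all 12 libraries. The IGF2BP readers had the highest means, with IGF2BP1 at 88.1 ± 24.5 CPM per kb (SD, n = 12), IGF2BP2 at 86.0 ± 7.01 and IGF2BP3 at 71.7 ± 15. ALKBH5 followed at 63.9 ± 22.0 and YTHDF2 at 53.0 ± 5.31. A lower tier held YTHDF1 at 35.4 ± 2.40, YTHDF3 at 30.8 ± 4.55, FTO at 30.4 ± 3.88 and YTHDC1 at 29.8 ± 4.08, and YTHDC2 was last at 9.46 ± 2.42. IGF2BP1, IGF2BP2, IGF2BP3 and ALKBH5 overlapped within their SDs, as did ALKBH5 and YTHDF2, and YTHDF1, YTHDF3, FTO and YTHDC1, so their order within these groups was not resolved. The order also differed between groups: in the H1 KD1 libraries ALKBH5, at 116 and 90.7 CPM per kb, was above IGF2BP1 (63.0 and 63.8) and IGF2BP3 (57.0 and 57.7). It rests, too, on the length chosen: by the longest protein-coding transcript IGF2BP2 came first at 78.3, and FTO, whose median and longest transcripts are 1852 and 11766 bases, fell to 4.79, the rank above YTHDC2.

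Over both lines, 0 of the 10 members were called at an adjusted p under 0.05 (edgeR quasi-likelihood test), against 0.213% of the 24898 genes tested. IGF2BP1 and ALKBH5 had an unadjusted p under 0.05 in edgeR, as did 3918 of the 24898 genes. DESeq2 also called 0 members, against 1246 genes. The comparison over both lines counts differences between hairpins as spread. With group means in its place, edgeR called both members, but also 2688 of the 24898 genes. By hairpin, KD1 in H1 changed 2 of 10 members, ALKBH5 upward and IGF2BP1 downward, against 11.1% of all genes. KD2 changed 0 of 10 (1.54% of all genes in edgeR) and KD3 changed 0 of 10 (2.98%) in edgeR and in DESeq2. At an unadjusted p under 0.05 were 0 members, against 4000 and 4724 of the 24898 genes. The average of the 3 H1 hairpins changed 0 of 10 (7.16% of all genes) in edgeR. At an unadjusted p under 0.05 were 2 members, against 5783 of the 24898 genes. DESeq2 called 1 member, ALKBH5, and 2696 genes. The average of KD1 and KD2 in MEL1 changed 1 of 10, IGF2BP1, against 4.45% of all genes in edgeR. Here 5 members were at an unadjusted p under 0.05, against 5641 of the 24898 genes. DESeq2 called 4 members there, IGF2BP1, ALKBH5, YTHDF2 and YTHDC1, and 2107 genes. MEL1 KD2 by itself changed 0 of 10 (3.88%) in edgeR, with 2 members at an unadjusted p under 0.05, and DESeq2 called IGF2BP3. For MEL1 KD2, all genes at that unadjusted p or called by DESeq2 were not counted. The members' median log2 difference was 0.01 in the H1 average, the same as over all genes, and -0.30 in the MEL1 average, where the median over all genes was 0.07. The comparisons of H1 hairpins with SCR use the same 2 control libraries, and those in MEL1 the same 1.

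**Figure D2:**
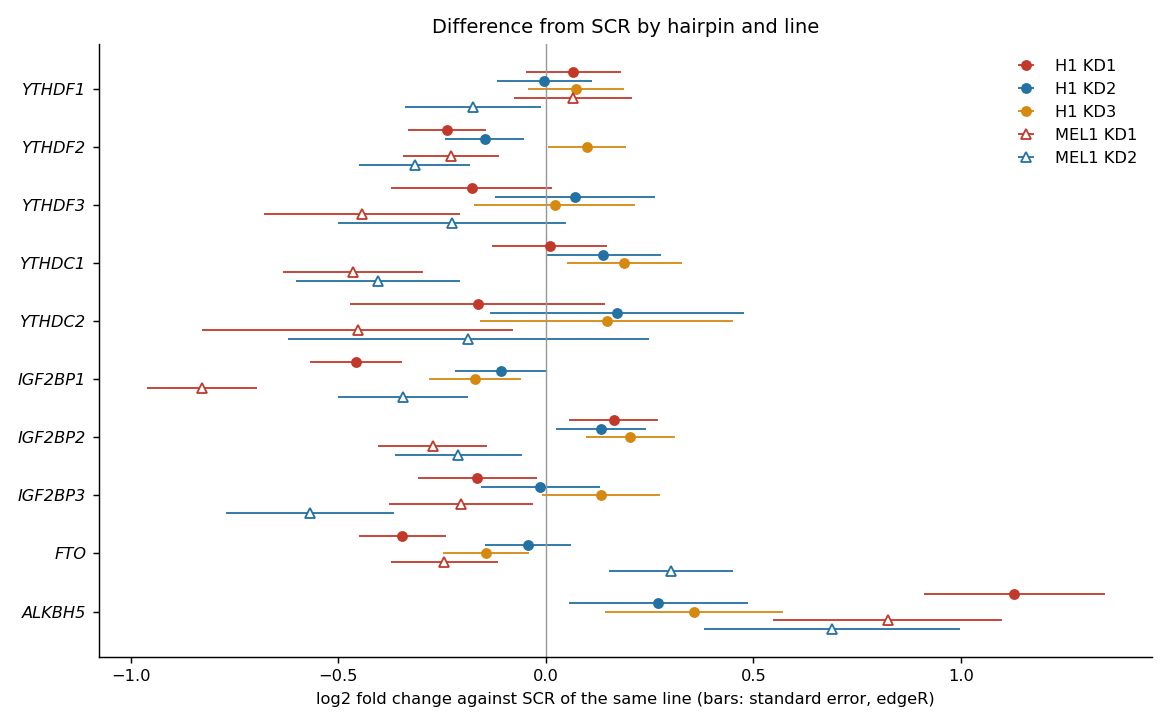
Log2 fold change of each member against the SCR group of the same line (horizontal axis), for each hairpin in H1 (filled circles) and MEL1 (open triangles); bars are standard errors from edgeR. KD1 gives the largest values for ALKBH5 in H1 (1.13) and for IGF2BP1 in MEL1 (-0.83).

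Among the demethylases, ALKBH5 (ENSG00000091542, chromosome 17, 18183078 to 18209954, plus strand, GRCh38) moved most. With SCR in H1 it stood at 119 and 86.8 CPM, against 254 and 197 with KD1, 101 and 148 with KD2, and 144 and 120 with KD3. Both KD1 libraries lay above all other H1 libraries, while the KD2 and SCR libraries overlapped. How many of all genes showed that order was not counted. With KD1 ALKBH5 rose by a log2 of 1.13 (SE 0.22, edgeR adjusted p 0.0135), a 2.19-fold difference. With KD2 the difference was 0.27 (SE 0.22, adjusted p 0.588) and with KD3 0.36 (SE 0.22, adjusted p 0.412). An F test was made of any difference among the 3 H1 hairpins. This contrast leaves out the SCR groups, whose libraries still enter the shared estimate of the spread. It gave ALKBH5 an adjusted p of 0.0757 in edgeR and 0.000678 in DESeq2. It called 0 of 10 members in edgeR against 3.54% of all genes. At an unadjusted p under 0.05 were 4 members and 4978 of the 24898 genes, and DESeq2 called 3 members and 2224 genes. For ALKBH5 the edgeR value passed without either H1 SCR library (0.0434 and 0.0439) and without the second KD2 library (0.0389). ALKBH5 was lower with KD2 than with KD1 by a log2 of -0.86 (SE 0.22, adjusted p 0.114) and with KD3 than with KD1 by -0.77 (SE 0.22, adjusted p 0.0759).

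In MEL1, ALKBH5 stood at 80.9 CPM in the SCR library, 132 and 154 with KD1 and 131 with KD2. All 3 knockdown libraries lay above the SCR library, at 172% ± 16 of it (SD, n = 3). That SCR library had the fewest counts (15963241) and the most negative value (-0.63) of the trend on GC content described below. The average log2 difference was 0.76 (SE 0.27), with an adjusted p of 0.132 in edgeR and 0.0473 in DESeq2, and 0.82 (SE 0.28) for KD1 and 0.69 (SE 0.31) for KD2. The mean KD1 and KD2 effect differed between the lines by 0.06 (SE 0.32, edgeR adjusted p 0.994). Of all knockdown libraries, 8 of 9 were above the SCR mean of their line. Over all genes, neither this pattern nor that of the 3 MEL1 libraries was counted. The KD1 call in H1 was lost without the second SCR library (0.92, adjusted p 0.0907) and without the first KD1 library (0.97, adjusted p 0.101), and held in 18 of 20 alternatives.

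FTO (ENSG00000140718, chromosome 16, 53701692 to 54158512, plus strand) encodes the other demethylase. It stood at 61.8 and 63.9 CPM with SCR in H1, 51.5 and 47.3 with KD1, 62.6 and 59.4 with KD2, and 55.7 and 58.0 with KD3. Both KD1 libraries were the lowest of the 8, an order not counted over all genes, and KD2 overlapped SCR. The KD1 difference was a log2 of -0.35 (SE 0.10), short of the threshold in edgeR (adjusted p 0.0573) and past it in DESeq2 (-0.32, adjusted p 0.0342). In MEL1, FTO stood at 55.2 CPM with SCR, 46.2 and 47.0 with KD1, and 68.0 with KD2. KD1 and KD2 thus lay on opposite sides of the SCR library there, with log2 differences of -0.24 (SE 0.13, adjusted p 0.263) and 0.30 (SE 0.15, adjusted p 0.288).

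The CPM ratio of the pair was taken because ALKBH5 was higher and FTO lower in the KD1 libraries. Its height with KD1 follows from those differences and is no separate result. ALKBH5 stood at 4.92 and 4.17 times FTO in the H1 KD1 libraries and at 1.36 to 2.58 times FTO in the other 6 H1 libraries. In MEL1 the ratio was 2.87 and 3.27 with KD1, 1.92 with KD2 and 1.47 with SCR. Per kb, ALKBH5 made up 66.2% ± 8.62 (SD, n = 12) of the sum of the pair, from 53.6% in an H1 SCR library to 80.7% in an H1 KD1 library. Among the 7 other AlkB-type dioxygenases (ALKBH1 to ALKBH4 and ALKBH6 to ALKBH8), 0 were called over both lines, in the H1 average or in the MEL1 average. At an unadjusted p under 0.05 in edgeR were 2, 1 and 5, against 3918, 5783 and 5641 of the 24898 genes.

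The genes whose log2 CPM was most like that of ALKBH5 over the 12 libraries were PER1, a repressor of the circadian clock (Pearson r = 0.970), and ARRDC2, an arrestin-domain protein (r = 0.956). Over the 8 H1 libraries r was 0.992 and 0.979; these libraries share depth and a trend on GC content described below, so the values are descriptions. PER1 stood at 35.2 and 24.2 CPM with SCR in H1 and at 90.8 and 63.4 with KD1, a log2 difference of 1.37 (SE 0.30, edgeR adjusted p 0.0245). ARRDC2 stood at 7.45 and 5.63 CPM with SCR and 28.9 and 20.4 with KD1, a difference of 1.91 (SE 0.32, adjusted p 0.00741).

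The promoters of ALKBH5 and PER1 are shown because the levels of the pair moved together. The sequences are the 250 bases before the start of the gene in RefSeq (GRCh38.p14), at chr17:18183578-18183827 on the plus strand for ALKBH5 and chr17:8152405-8152654 on the minus strand for PER1. RefSeq places the start of ALKBH5 downstream of the GENCODE start given above, so this stretch lies inside the GENCODE gene. Capitals mark matches on either strand to the E-box CACGTG, the cyclic AMP response element TGACGTCA, the GC box GGGCGG, the CCAAT box CCAAT and the TATA box TATAAA.
ALKBH5: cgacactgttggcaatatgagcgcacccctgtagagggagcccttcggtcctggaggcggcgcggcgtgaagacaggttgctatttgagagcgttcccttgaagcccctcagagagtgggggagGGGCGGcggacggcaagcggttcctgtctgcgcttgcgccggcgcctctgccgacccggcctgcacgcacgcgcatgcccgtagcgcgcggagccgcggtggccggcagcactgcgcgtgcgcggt
PER1: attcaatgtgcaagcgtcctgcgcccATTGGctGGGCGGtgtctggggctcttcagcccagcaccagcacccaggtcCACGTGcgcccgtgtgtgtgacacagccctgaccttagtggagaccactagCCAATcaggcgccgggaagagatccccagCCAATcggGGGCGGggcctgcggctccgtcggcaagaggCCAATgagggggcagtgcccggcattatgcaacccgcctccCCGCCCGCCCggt
Among all 34943 RefSeq promoters of this length, 42.5% held a GC box, 32.0% a CCAAT box, 10.8% a TATA box, 6.3% an E-box and 1.6% a cyclic AMP response element. The ALKBH5 promoter held 1 GC box and no other of these motifs, in 70.0% GC with 32 CpG dinucleotides, against medians of 58.0% and 11. The PER1 promoter held 1 E-box, 3 GC boxes (overlapping matches counted once) and 4 CCAAT boxes in 67.2% GC. The GC box was the motif that both promoters held. These matches are letters in a window and not measured binding sites.

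Among the IGF2BP readers, IGF2BP1 (ENSG00000159217, chromosome 17, 48997412 to 49055650, plus strand) was lower in every knockdown library. In H1 it stood at 410 and 425 CPM with SCR, 302 and 306 with KD1, 400 and 376 with KD2, and 372 and 370 with KD3. MEL1 held 724 CPM with SCR, 438 and 377 with KD1, and 571 with KD2. The groups did not overlap in either line, as for 3.96% of all genes, and KD1 was the lowest hairpin in both. Knockdown libraries held 84.8% ± 9.65 (SD, n = 6) of the SCR mean in H1 and 63.8% ± 13.7 (SD, n = 3) of the SCR library in MEL1.

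With KD1, IGF2BP1 fell by 0.46 on the log2 scale in H1 (SE 0.11, edgeR adjusted p 0.0251) and by 0.83 in MEL1 (SE 0.13, adjusted p 0.00903), where 1 of 10 members was called against 8.39% of all genes. DESeq2 also called ALKBH5 (0.77, adjusted p 0.0258) and YTHDC1 (-0.52, adjusted p 0.0382) in MEL1 KD1, where its calls over all genes were not counted. KD2 gave -0.11 (SE 0.11, adjusted p 0.688) in H1 and -0.34 (SE 0.16, adjusted p 0.245) in MEL1, and KD3 gave -0.17 (SE 0.11, adjusted p 0.442). The MEL1 average was -0.59 (SE 0.13, adjusted p 0.0314), a call lost without either H1 KD1 library (adjusted p 0.0547 and 0.0544), which enter through the shared spread. The lines differed in the mean KD1 and KD2 effect by -0.30 (SE 0.16, adjusted p 0.365). The H1 KD1 call was lost when any of the 4 SCR and KD1 libraries was left out (adjusted p 0.0766 to 0.175) and with upper-quartile scaling (0.0527). The MEL1 KD1 call held in all 18 alternatives (adjusted p up to 0.0416), among which MEL1 SCR could not be left out.

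IGF2BP2 (ENSG00000073792, chromosome 3, 185643739 to 185825056, minus strand), the family member that adult tissues keep, lay on opposite sides of SCR in the lines. In H1 it stood at 283 and 259 CPM with SCR, 302 and 305 with KD1, 287 and 308 with KD2, and 302 and 322 with KD3. In MEL1, IGF2BP2 stood at 312 CPM with SCR, 272 and 245 with KD1, and 270 with KD2. All 6 H1 knockdown libraries were thus above both SCR libraries and all 3 in MEL1 below the SCR library, as for 1.76% of all genes. The log2 difference was 0.17 (SE 0.09, edgeR adjusted p 0.293) in H1 and -0.24 (SE 0.13, adjusted p 0.285) in MEL1. The edgeR test between the lines compared the mean KD1 and KD2 effects, without H1 KD3, and gave -0.39 (SE 0.16, unadjusted p 0.0300, adjusted p 0.236). It called 0 of 10 members in edgeR and in DESeq2, against 0.598% of all genes in edgeR. The other member at an unadjusted p under 0.05 was YTHDC1, a threshold that 4282 of the 24898 genes passed.

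IGF2BP3 (ENSG00000136231, chromosome 7, 23310209 to 23470467, minus strand) stood at 181 and 229 CPM with SCR in H1 and at 182 to 247 in the 6 knockdown libraries, so the groups overlapped. In MEL1 it stood at 326 CPM with SCR, 300 and 265 with KD1, and 220 with KD2. The H1 average differed by -0.02 (SE 0.12, edgeR adjusted p 0.967) and the MEL1 average by -0.39 (SE 0.16, adjusted p 0.193). With MEL1 KD2 the difference of -0.57 (SE 0.20, adjusted p 0.141) passed in DESeq2 (-0.63, adjusted p 0.0274). Per kb, IGF2BP1 made up 33.6% ± 3.10 (SD, n = 8) of the family sum in H1 and 38.9% ± 5.86 (SD, n = 4) in MEL1, and IGF2BP2 38.6% ± 3.44 and 29.6% ± 1.86. Per kb of median transcript, IGF2BP2 was above IGF2BP1 in all 6 H1 knockdown libraries and below it in both H1 SCR libraries and in all 4 MEL1 libraries. Among the H1 knockdown libraries the gap was widest with KD1, where IGF2BP1 stood at 63.0 and 63.8 CPM per kb and IGF2BP2 at 89.95 and 90.8. This change of order between SCR and knockdown depended on the length chosen. By the longest protein-coding transcript, IGF2BP2 was above IGF2BP1 in all H1 libraries, SCR included. Its mean share of the family sum in H1 was then 46.5%, against 25.8% for IGF2BP1. In MEL1 these shares were 36.8% and 30.9%.

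**Figure D3:**
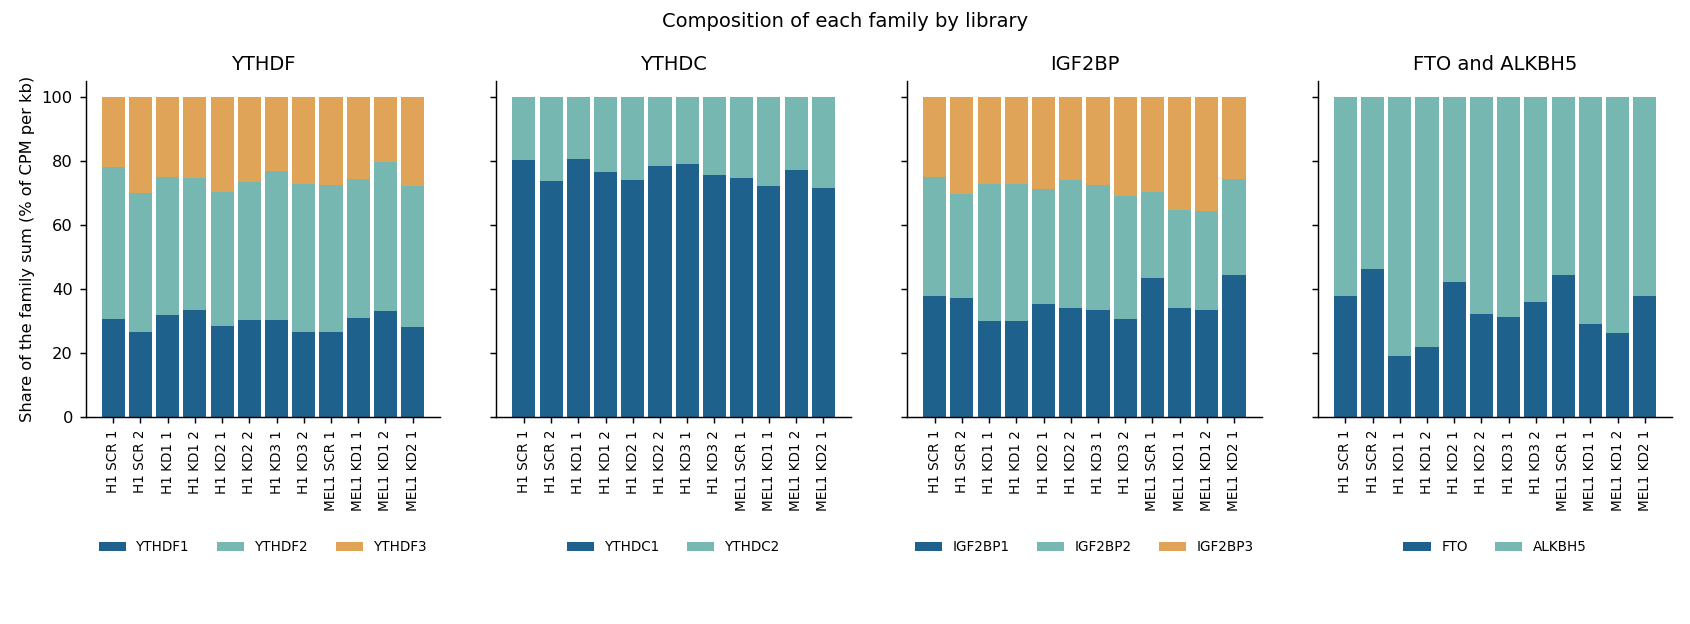
Share of each member in the summed level of its family, in percent of CPM per kb of median protein-coding transcript (vertical axis), in each of the 12 libraries (horizontal axis). YTHDF2 makes up 41.1% to 47.3% of its family in all libraries, while the share of ALKBH5 ranges from 53.6% to 80.7%.

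IGF2BP1 and IGF2BP3 are often expressed with LIN28 proteins, which block the let-7 microRNAs. In a list of 10 genes of that axis, 9 were tested. IGF2, the growth factor whose messenger RNA gave the family its name and whose reads may be shared with the readthrough gene INS-IGF2, rose in the H1 average by a log2 of 0.79 (SE 0.17, edgeR adjusted p 0.0206) and was the 1 gene called there. In the MEL1 average, 0 of 9 were called by edgeR, with 2 at an unadjusted p under 0.05, against 5641 of the 24898 genes. LIN28A had a log2 difference of 0.16 (SE 0.12) and LIN28B of -0.01 (SE 0.19) in the H1 average. With KD1 in H1, 6 of the 9 genes had a positive and 3 a negative difference, with a list median of 0.17. Of these, 1 was called higher and 2 lower, against 11.1% of all genes called. The 2 called lower were HMGA2, which fell by 0.74 (SE 0.13, edgeR adjusted p 0.00888), and MYCN, which fell by 0.55 (SE 0.12, adjusted p 0.0196). Like IGF2BP1, neither was called with KD2 or KD3. Most like IGF2BP1 over the libraries were UBE3C, a ubiquitin ligase (r = 0.980), and TNC, an extracellular matrix glycoprotein (r = 0.964). With H1 KD1 they fell by 0.50 (SE 0.10, adjusted p 0.0146) and 0.90 (SE 0.18, adjusted p 0.0116).

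Among the cytoplasmic YTHDF readers, YTHDF2 (ENSG00000198492, chromosome 1, 28736621 to 28769775, plus strand), which recruits the CCR4-NOT deadenylase, varied by hairpin with close replicates. In H1 it stood at 151 and 143 CPM with SCR, 123 and 127 with KD1, 134 and 131 with KD2, and 155 and 160 with KD3. KD1 and KD2 libraries lay below both SCR libraries and KD3 libraries above them. The share of all genes with this order was not counted. The log2 difference was -0.24 (SE 0.09, edgeR adjusted p 0.134) with KD1, -0.15 (SE 0.09) with KD2 and 0.10 (SE 0.09) with KD3. Between KD3 and KD1 it was 0.34 (SE 0.09, adjusted p 0.0700), and the test over the 3 hairpins passed in DESeq2 (adjusted p 0.0321) but not in edgeR (0.124). In MEL1, YTHDF2 stood at 172 CPM with SCR, 148 and 146 with KD1, and 139 with KD2, an average difference of -0.27 (SE 0.11) with an adjusted p of 0.174 in edgeR and 0.0457 in DESeq2.

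YTHDF1 (ENSG00000149658, chromosome 20, 63195429 to 63216234, minus strand) had the lowest coefficient of variation of the members over the 12 libraries (6.8%), with 64.9 CPM in the lowest library, a median of 70.8 and 78.5 in the highest. Its log2 difference over both lines was 0.03 (SE 0.10, edgeR adjusted p 0.929). YTHDF3 (ENSG00000185728, chromosome 8, 63168553 to 63212786, plus strand) stood in H1 at 60.8 and 85.7 CPM with SCR, a range that held all 6 H1 knockdown libraries (61.6 to 83.7). Its MEL1 levels were 89.2 CPM with SCR, 75.7 and 55.5 with KD1, and 76.2 with KD2, an average difference of -0.33 (SE 0.23, adjusted p 0.421). Per kb, YTHDF2 made up 44.4% ± 2.06 (SD, n = 12) of the YTHDF sum, YTHDF1 29.8% ± 2.45 and YTHDF3 25.8% ± 2.93.

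Of 20 genes that work with the readers, among them the CCR4-NOT subunits, UPF1, SRSF3 and NXF1, 21 identifiers were tested because MATR3 had 2. In the H1 average 2 were called, both lower. RIDA, reported to bridge YTHDF2 to the ribonuclease P complex, fell by 0.68 (SE 0.12, edgeR adjusted p 0.0104), and SRSF3, a splicing factor that binds YTHDC1, fell by 0.58 (SE 0.10, adjusted p 0.0107). In the MEL1 average 0 were called, with 6 at an unadjusted p under 0.05, against 5641 of the 24898 genes. RIDA had a difference there of -0.67 (SE 0.17, adjusted p 0.0515) and SRSF3 of -0.24 (SE 0.15, adjusted p 0.361). Of 13 other proteins proposed to read m6A, 0 were called in the H1 or the MEL1 average. At an unadjusted p under 0.05 were 1 and 5 of them, against 5783 and 5641 of all genes. Of 13 genes for writers of m6A, METTL14 and WTAP were called lower in both averages. WTAP, the subunit that places the complex at nuclear speckles, fell by 0.50 in H1 (SE 0.08, adjusted p 0.00947) and by 0.61 in MEL1 (SE 0.12, adjusted p 0.0263). PCIF1, which methylates the first transcribed adenosine, rose by 0.66 in MEL1 (SE 0.16, adjusted p 0.0480).

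**Figure D4:**
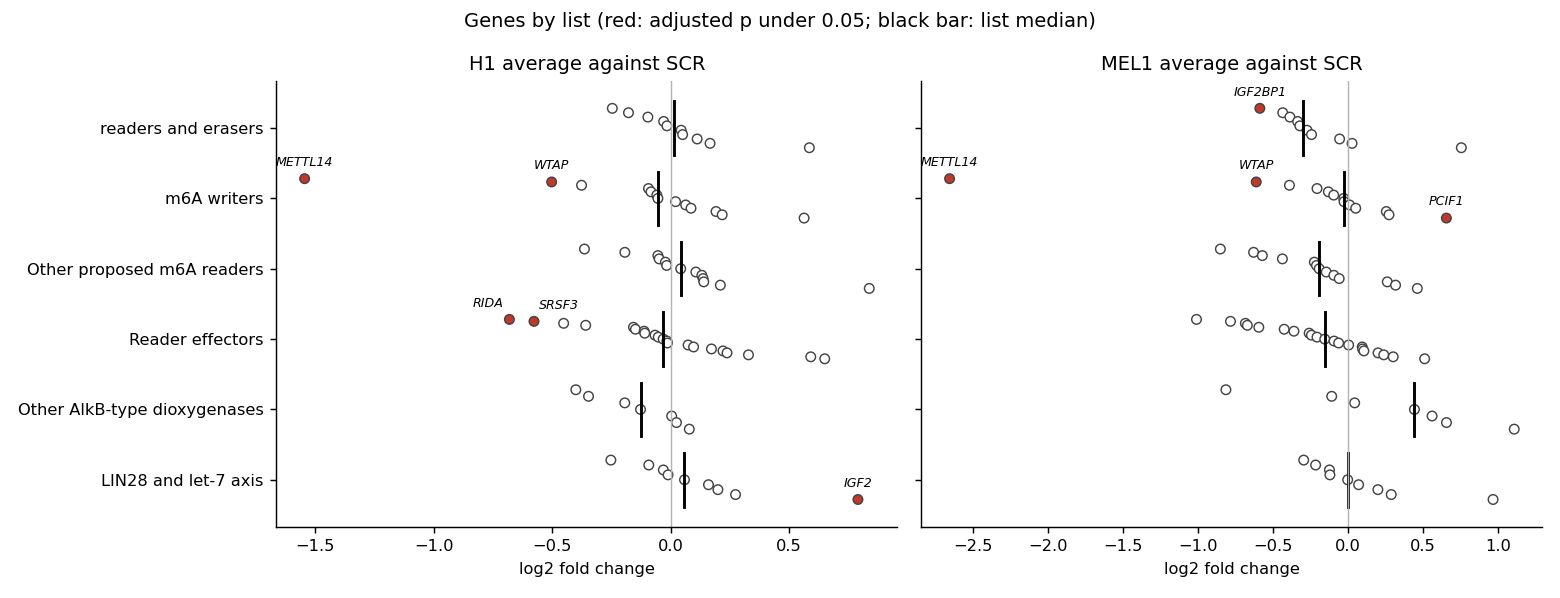
Log2 fold change of each tested gene (points; red where the edgeR adjusted p is under 0.05, black bar the list median) in the H1 average (left) and the MEL1 average (right), by list. Of the readers and erasers, IGF2BP1 is called in MEL1 and none in H1, while METTL14 and WTAP are called in both lines.

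In H1 the YTHDC readers differed between libraries of the same group by as much as between groups. YTHDC1 (ENSG00000083896, chromosome 4, 68310387 to 68350089, minus strand) stood at 44.2 and 54.5 CPM with SCR in H1 and at 47.2 to 60.7 in the 6 knockdown libraries. In MEL1 it stood at 73.8 CPM with SCR, 55.6 and 51.4 with KD1, and 55.8 with KD2. All 3 lay below SCR, for which no share over all genes was taken. The average difference was 0.11 (SE 0.11, edgeR adjusted p 0.609) in H1 and -0.43 (SE 0.16, adjusted p 0.142, and 0.04998 in DESeq2) in MEL1. The edgeR test between the lines, on the mean KD1 and KD2 effects, gave -0.51 (SE 0.20, adjusted p 0.233). YTHDC2 (ENSG00000047188, chromosome 5, 113513683 to 113595285, plus strand) stood in H1 at 15.7 and 27.7 CPM with SCR, 17.9 and 20.8 with KD1, 28.8 and 19.95 with KD2, and 19.8 and 28.2 with KD3. In MEL1 it stood at 35.9 CPM with SCR, 30.7 and 21.7 with KD1, and 31.6 with KD2. Its average difference was 0.05 (SE 0.25, adjusted p 0.940) in H1 and -0.32 (SE 0.36, adjusted p 0.650) in MEL1, so a change within these errors was not detectable.

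YTHDC1 and YTHDC2 varied together over the 12 libraries (r = 0.84), and their promoters are shown for that reason. The RefSeq sequences (GRCh38.p14, 250 bases before the gene start) lie at chr4:68350091-68350340 on the minus strand for YTHDC1 and chr5:113513444-113513693 on the plus strand for YTHDC2, with the same motifs in capitals.
YTHDC1: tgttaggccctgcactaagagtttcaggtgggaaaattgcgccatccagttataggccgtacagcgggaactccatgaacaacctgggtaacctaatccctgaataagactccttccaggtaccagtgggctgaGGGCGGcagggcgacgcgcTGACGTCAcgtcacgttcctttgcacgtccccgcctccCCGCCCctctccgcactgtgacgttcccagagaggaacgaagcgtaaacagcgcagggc
YTHDC2: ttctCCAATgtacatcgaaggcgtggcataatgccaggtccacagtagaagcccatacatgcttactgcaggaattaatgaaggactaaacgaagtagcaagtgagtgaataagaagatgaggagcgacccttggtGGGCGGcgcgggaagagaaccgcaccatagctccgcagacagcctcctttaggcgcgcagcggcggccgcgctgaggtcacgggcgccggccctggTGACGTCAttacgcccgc
Both held 1 cyclic AMP response element TGACGTCA, which 571 of the 34943 promoters (1.6%) held. YTHDC1 also held 2 GC boxes, and YTHDC2 held 1 GC box and 1 CCAAT box. RefSeq promoters were matched for 8 of the 10 members, and none of the other 6 held that element. YTHDF3, which also varied with YTHDC2 (r = 0.82), and IGF2BP1 had no promoter entry. These matches, too, are letters in a window and not measured binding sites. Their part in the shared variation was not tested.

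A trend on GC content moved with the levels of several members. In each library, the rank correlation (Spearman's rho) between a gene's GC content and its log2 deviation from the mean of its line was taken over 10407 genes with at least 10 CPM, as a description across genes that are not independent. In H1 it was 0.25 and -0.49 with SCR, 0.31 and 0.61 with KD1, -0.23 and 0.14 with KD2, and 0.05 and -0.57 with KD3. In MEL1 it was -0.63 with SCR, 0.41 and 0.44 with KD1, and -0.02 with KD2. Transcripts of ALKBH5 hold 54.9% GC, the most of the members, and those of YTHDC2 33.4%, the least. Between libraries of the same group, YTHDC2 and ALKBH5 changed in opposite directions in 5 of 5 pairs. These changes did not follow rho in every pair. From the first to the second H1 KD1 library rho rose, while ALKBH5 differed by a log2 of -0.36 and YTHDC2 by 0.22. In the remaining pairs ALKBH5 moved in the direction of rho and YTHDC2 opposite to it, though rho hardly changed in MEL1 KD1. In the pair of H1 SCR libraries YTHDC2 differed by a log2 of 0.82 and ALKBH5 by -0.46, and the median absolute difference over the 5 pairs was 0.51 for YTHDC2 and 0.36 for ALKBH5 but 0.04 for YTHDF2 and 0.05 for IGF2BP1.

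With a smooth trend on GC content and length taken out of each library, the KD1 results in H1 were about as large. ALKBH5 differed by 1.04 (edgeR adjusted p 0.00782), IGF2BP1 by -0.51 (adjusted p 0.00353) and FTO, now past the threshold, by -0.41 (adjusted p 0.0230). In the H1 average IGF2BP1 (-0.34, adjusted p 0.00950), FTO (-0.32, adjusted p 0.0273) and ALKBH5 (0.56, adjusted p 0.0497) were then called, 3 of 10 members. The calls over all genes also rose, to 4065 with KD1 in H1 and 3593 in the H1 average. These fits held only the 90.6% of the 24898 genes that had GC and length values. In MEL1, IGF2BP1 kept its call (-0.58, adjusted p 0.0126), while the ALKBH5 difference of 0.47 had an adjusted p of 0.313 and the FTO difference with KD1 turned to 0.07 (adjusted p 0.812). With KD2 in MEL1, IGF2BP3 (-0.62, adjusted p 0.0145), YTHDC1 (-0.48, adjusted p 0.0377) and IGF2BP1 (-0.49, adjusted p 0.0431) were then called, where none had been before. How many of all genes were then called with KD2 in MEL1 was not counted.

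**Figure D5:**
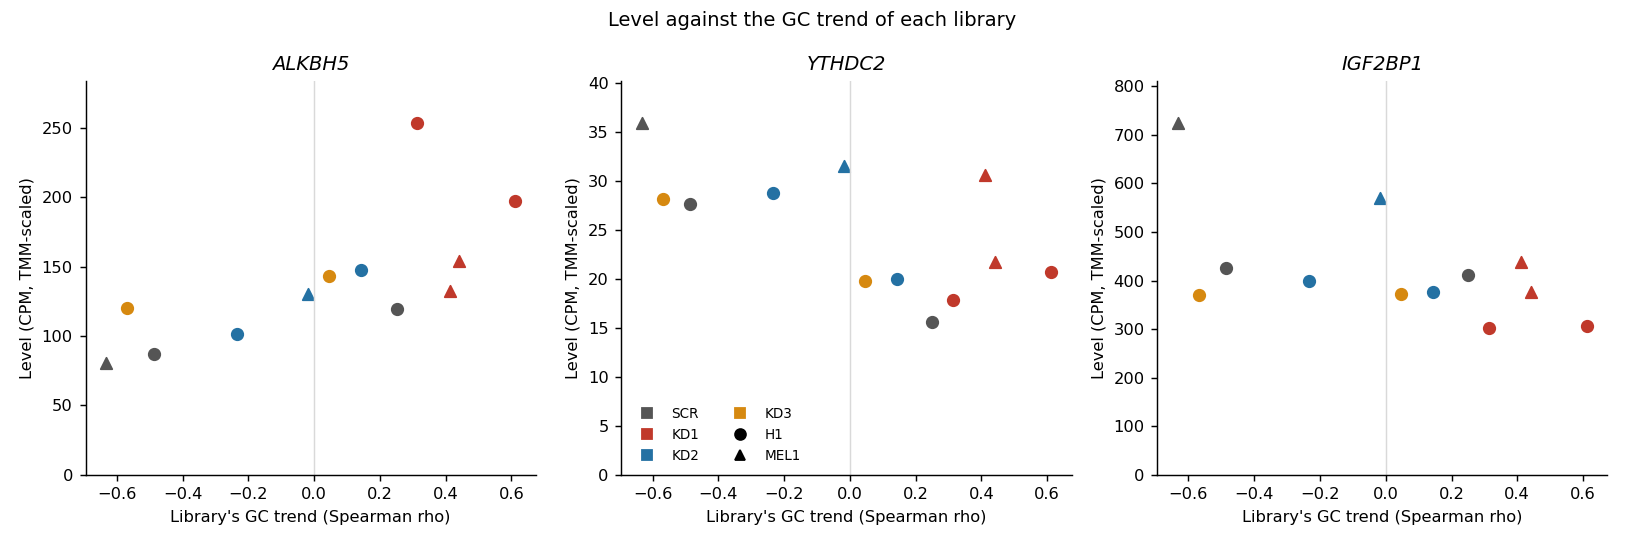
Level of ALKBH5, YTHDC2 and IGF2BP1 in CPM (vertical axes from 0) against the GC trend of each library (horizontal axis, Spearman's rho across 10407 genes); circles are H1 and triangles MEL1 libraries, colours mark the hairpin. ALKBH5 is lowest in MEL1 SCR (rho -0.63) and highest in the H1 KD1 libraries (rho 0.31 and 0.61), and YTHDC2 is highest in MEL1 SCR.

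Between the lines, averaged over SCR, KD1 and KD2, 4 of 10 members were higher in MEL1 than in H1 (edgeR), against 23.0% of all genes called higher and 49.1% called in either direction. IGF2BP1 was higher by a log2 of 0.59 (SE 0.07, adjusted p 4.9e-05), a 1.51-fold difference, and IGF2BP3 by 0.47 (SE 0.09, adjusted p 0.00159), 1.39-fold. Both calls held in all 19 alternatives. YTHDC1 was higher by 0.24 (SE 0.09, adjusted p 0.0482) and YTHDF2 by 0.18 (SE 0.06, adjusted p 0.0368), calls that held in 9 and 5 of the 19. YTHDC2 had a difference of 0.51 (SE 0.20, adjusted p 0.0611) and ALKBH5 of -0.31 (SE 0.15, adjusted p 0.103). YTHDC2 passed in 10 of the 19 alternatives, among them DESeq2 (adjusted p 0.0107) and removal of the GC trend (2.43e-05), and ALKBH5 in 4. FTO, YTHDF1, YTHDF3 and IGF2BP2 differed by -0.06 to 0.10.

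Markers of cell types moved with this comparison. Of 8 markers of pluripotent cells 7 were called higher in MEL1 and 1 lower, with a summed level of 1508 to 3708 CPM in the MEL1 and 962 to 1424 in the H1 libraries. All 8 markers of neural progenitors were called lower in MEL1 (461 to 675 against 1164 to 1480 CPM), and all 6 of neurons (131 to 173 against 391 to 611 CPM), among which ELAVL4 was below 0.5 CPM in every MEL1 library. Of 6 neural crest markers 5 were called higher in MEL1 and 1 lower. The 8 endoderm markers summed to at most 59.0 CPM in H1 and 31.1 in MEL1, with SOX17 and FOXA2 below 0.5 CPM in every library, and the 8 mesoderm and endothelial markers to at most 167 and 111. The markers also moved with the hairpins: in the H1 average 4 of 8 pluripotency markers were called lower and 1 higher, and 5 of 8 neural progenitor markers higher and 1 lower. In the MEL1 average 3 of 8 pluripotency markers were called lower. The MEL1 KD2 library stood apart, with pluripotency markers summing to 1508 CPM against 3248 with SCR and 3654 and 3708 with KD1, and neural crest markers to 664 against 342 with SCR and 304 and 265 with KD1. FTO was highest and IGF2BP3 lowest of the MEL1 libraries in that library. The part of these markers in the differences of the members was not tested.

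Over the 12 libraries, the levels of YTHDC2, YTHDC1, YTHDF3, IGF2BP1 and IGF2BP3 varied together, with pairwise r from 0.46 to 0.84, and ALKBH5 against them, with r from -0.73 to -0.55. FTO went most against YTHDF1 (r = -0.77). The genes most like the remaining members, by Pearson's r over the same libraries, were DDX46 (0.967) and PPP4R3A (0.953) for YTHDC1 and WDR36 (0.970) and CSPP1 (0.954) for YTHDC2. They were FAR1 (0.950) and MPHOSPH8 (0.948) for YTHDF3, DDX21 (0.969) and PUS7 (0.966) for IGF2BP3, and ADGRA3 (0.963) and EML1 (0.948) for FTO. PTBP2, the neural polypyrimidine tract binding protein (0.939), and PGBD5 (0.934) were most like YTHDF2. PTBP2 fell by 1.09 with KD1 in H1 (SE 0.16, edgeR adjusted p 0.00425). The weakest likeness was found for YTHDF1, with TBC1D22B (0.874) and TIMM44 (0.871), and for IGF2BP2, with SAFB (0.906) and ZNF417 (0.894). All points share their library's depth and GC trend.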

How the data were processed

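Total RNA libraries made with a stranded kit, per the labels' protocols, were processed with fastp and kallisto, per the submitters' processing notes. Their versions, the transcript annotation and the strand setting are not given in the sources used here. The deposited table holds estimated counts per gene, of which 14.7% to 20.7% in a library were not whole. Such estimates divide reads between similar or overlapping transcripts, and AC087164.1 (opposite ALKBH5), RPGRIP1L (opposite FTO) and MALSU1 (opposite IGF2BP3) overlap members. The name table held 59243 of 65969 identifiers.

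Estimated counts were rounded. The edgeR function filterByExpr with the 7 groups kept 24898 genes, and scaling used the trimmed mean of M-values. Robust quasi-likelihood F-tests (edgeR 4.0.16, limma 3.58.1, R 4.3.3) with Benjamini-Hochberg adjustment over all tested genes called a gene at an adjusted p under 0.05. The comparison over both lines used cell line as a covariate, and all others were contrasts of the 7 group means. MEL1 SCR is 1 library, so its spread was assumed to be that of the other groups. GENCODE release 29 (GRCh38) gave positions, transcript lengths and GC contents.

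On simulated data with 200 of 23703 genes changed by a log2 of 2, the comparison over both lines recovered 97.0% with 4.43% false calls. The H1 average recovered 93.5% with 13.0%, H1 KD1 88.5% with 7.81% and the MEL1 average 82.0% with 5.20%. In these data 0 genes were set to differ among the H1 hairpins, between the lines or in the effect between the lines. The largest log2 difference of a member in edgeR as reported was 1.13, for ALKBH5 with KD1 in H1. Recovery of differences as small as those of the members, or differing by hairpin, was not tested. Alternatives were other scalings and filters, DESeq2 1.42.0, a non-robust fit, removal of a GC and length trend (splines with 5 and 4 degrees of freedom), H1 by itself and leaving out each library. Contrasts of a single MEL1 hairpin and between H1 hairpins were added after the data were seen.

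The members and lists were chosen with earlier results of these data known. Named genes were the members, METTL14, list genes called over both lines or in the H1 average, and the 2 genes of at least 10 CPM most correlated with each member. HMGA2, MYCN, PCIF1, LIN28A, LIN28B, POU5F1, PAX6 and the markers below 0.5 CPM were named after their values were seen.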

Additional observations from a re-analysis of the deposited data

How the results depend on the processing

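A direction was counted as reversed only where the difference was called or exceeded its standard error in the analysis as reported. Of 2700 values of the members under alternatives, 2603 kept their side of the threshold and, apart from 96 sign changes of differences within their standard error, their direction, 33 lost the threshold, 54 gained it and 10 reversed, none of them a called value. With the GC and length trend removed, the log2 difference of IGF2BP3 turned to 0.00596 in H1 KD1, 0.0227 in MEL1 KD1 and -0.0604 in H1 KD2 minus KD1. FTO then turned to 0.0716 in MEL1 KD1, and in H1 KD3 minus KD1 YTHDF3 turned to -0.127, YTHDC1 to -0.130 and YTHDC2 to -0.0844. Leaving out 1 library gave IGF2BP3 -0.292 to 0.0117 in H1 KD1 (highest without the second H1 SCR library) and -0.00102 to 0.280 in H1 KD3 minus KD2 (lowest without the second KD3 library), and ALKBH5 -0.0264 to 0.524 in H1 KD2 (lowest without the second KD2 library). The cause was not tested.

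The number of members called over both lines rose from 0 to 2 with group means. In the H1 average it rose from 0 to 1 without a filter or with DESeq2 and to 3 with the trend removed, and leaving out 1 library gave 0 to 1 (1 without the first KD2 library). In H1 KD1 it fell from 2 to 1 with upper-quartile scaling, and leaving out 1 library gave 0 to 2: 0 without the second SCR or the first KD1 library, 1 without the first SCR or the second KD1 library. Among the H1 hairpins it rose from 0 to 1 without a filter and to 3 with DESeq2, with 0 to 1 on leaving out 1 library. In the MEL1 average it rose from 1 to 2 without a filter and to 4 with DESeq2, with 0 to 1 on leaving out 1 library, 0 without either H1 KD1 library. Between the lines it was 2 to 5 against 4 on leaving out 1 library, with 2 in 8 of the 12 cases, MEL1 SCR among them.

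Over all genes, the 53 called over both lines became 80 without a filter, 87 with a mean of at least 1 CPM, 1246 with DESeq2, 209 with the trend removed and 2688 with group means. Without a filter, the calls rose from 1783 to 3256 (H1 average), 2758 to 4160 (KD1), 384 to 1745 (KD2), 741 to 2290 (KD3), 881 to 3384 (hairpins), 1107 to 2703 (MEL1 average) and 149 to 1369 (difference of the effect between lines). With DESeq2 they were 2696 (H1 average), 1149 (KD2), 1675 (KD3), 2224 (hairpins), 2107 (MEL1 average) and 751 (difference between lines). With the trend removed they were 3593 (H1 average), 1472 (KD2), 2279 (KD3), 1893 (hairpins) and 516 (difference between lines). The fits with the trend removed held only the 90.6% of tested genes that had GC and length values. The 149 also became 88 with median-of-ratios scaling, 97 with upper-quartile scaling, 95 with a mean of at least 1 CPM and 82 with a non-robust fit. Leaving out 1 library gave 11 to 280 over both lines, 123 to 1842 in the H1 average, 206 to 2766 with KD1, 64 to 400 with KD2, 108 to 881 with KD3, 154 to 1139 among hairpins, 507 to 2081 in the MEL1 average and 34 to 565 for the difference between lines.

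By the longest protein-coding transcript, levels in CPM per kb were 21.7 for YTHDF1, 14.0 for YTHDF3, 8.77 for YTHDC1, 3.94 for YTHDC2, 51.1 for IGF2BP1, 78.3 for IGF2BP2, 53.8 for IGF2BP3 and 4.79 for FTO. No paired analysis was possible because the labels carry no replicate numbers. MEL1 comparisons rest on 1 SCR library of 15963241 estimated counts, which could not be left out of the comparisons with SCR, and every H1 comparison on 2 libraries per group, so differences near the standard errors given were not detectable.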
